A study of Mus musculus with 6 samples.

Results

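The genes described here encode the TRIM28 co-repressor complex, with the closest relatives of TRIM28 and the chromatin proteins it recruits. The 10 genes were chosen by name and not by a rule on their signals, though with earlier results of these data known. They were taken out of 22180 genes that had at least 1 transcript cluster with a single gene symbol on the array. Each gene was read from 1 transcript cluster, the brightest by its mean over all arrays among those that carried its symbol alone, and all 10 genes were measured.

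The cells were D2.OR, a mouse mammary cancer line derived from a hyperplastic alveolar nodule, which stays latent after it reaches distant organs. They were harvested after 7 days of 3D-culture on a reconstituted basement membrane, and total RNA was hybridized to 6 Affymetrix Mouse Gene 2.0 ST arrays, with 2 arrays labelled as biological replicates in each of 3 groups. BORG/sgTRIM28 cells expressed full-length murine BORG, a long noncoding RNA, and had Trim28 edited with CRISPR/Cas9. BORG cells expressed full-length murine BORG, and parental cells carried the empty vector. The edit of Trim28 is described as a small insertion that shifts the reading frame. Such an edit can leave the transcript in place, so the Trim28 RNA signal does not by itself check the loss of the protein. Whether the 2 arrays of a group came from separate cultures, and whether the BORG/sgTRIM28 cells were 1 clone or a pool, is stated neither by the labels nor by the methods. The p-values therefore measure the spread between these arrays, which may be technical. The study asked how far the effects of BORG on transcription depend on TRIM28, and the comparisons here ask how the genes of the TRIM28 complex themselves stood in the 3 groups.

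TRIM28, also called KAP1 or TIF1-beta, is a scaffold protein without a DNA-binding domain for specific sequence of its own. KRAB zinc finger proteins bring it to DNA, where it recruits the histone methyltransferase SETDB1, the HP1 proteins and the NuRD remodeling complex. SETDB1 places trimethylation on lysine 9 of histone H3, HP1 proteins bind that mark, and NuRD removes acetyl groups and moves nucleosomes, so that the bound locus is packed into heterochromatin. The complex is best known for silencing endogenous retroviruses, for the upkeep of imprinted loci and for a role in the response to DNA breaks.

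The promoter sequences of the members that carry the results below come from RefSeq on mouse build GRCm38.p6, in windows of 250 bases before to 50 bases after an annotated start. Of the 10 members, 8 matched 12 windows, and Trim33 and Chd3 are named only. The windows of Trim28 and Cbx1 are shown because these genes held the called changes, and the first of the Trim24 windows because Trim24 had the largest change in the other direction in BORG cells. Capitals mark the GC box (GGGCGG, searched on both strands), the short element bound by Sp1-type factors. They lie at chr7:13023902-13024201 for Trim28, chr11:96788885-96789184 for Cbx1 and chr6:37870561-37870860 for Trim24, all on the + strand and read 5′ to 3′.
Trim28: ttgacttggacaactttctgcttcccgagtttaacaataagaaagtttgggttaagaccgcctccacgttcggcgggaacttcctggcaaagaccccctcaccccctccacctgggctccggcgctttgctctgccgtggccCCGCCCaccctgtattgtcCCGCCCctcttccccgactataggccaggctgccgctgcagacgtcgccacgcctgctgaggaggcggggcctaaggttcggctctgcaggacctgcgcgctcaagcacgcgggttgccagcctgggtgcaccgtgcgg
Cbx1: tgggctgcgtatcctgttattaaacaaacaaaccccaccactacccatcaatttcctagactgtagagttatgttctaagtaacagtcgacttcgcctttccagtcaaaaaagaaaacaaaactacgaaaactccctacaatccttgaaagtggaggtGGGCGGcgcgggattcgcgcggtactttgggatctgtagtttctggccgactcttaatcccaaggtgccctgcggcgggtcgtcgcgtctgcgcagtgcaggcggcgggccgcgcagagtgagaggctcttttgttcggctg
Trim24: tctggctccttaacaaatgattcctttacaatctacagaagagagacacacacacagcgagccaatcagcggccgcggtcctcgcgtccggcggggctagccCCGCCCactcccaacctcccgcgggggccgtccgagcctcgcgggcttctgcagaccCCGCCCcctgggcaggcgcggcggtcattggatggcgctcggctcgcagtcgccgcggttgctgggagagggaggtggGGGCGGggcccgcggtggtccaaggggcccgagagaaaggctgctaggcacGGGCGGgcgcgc
The Trim28 window held 2 GC boxes, the Cbx1 window 1 and the Trim24 window 4. A GC box was present in 10 of the 12 member windows, against 35.7% of 32851 RefSeq promoter windows of the same length. All 8 matched members had it in at least 1 window, a count by gene that has no such share beside it. The CCAAT box (CCAAT, both strands, with 0 matches overlapping a GC box in these windows) was present in 6 of the 12 windows, against 37.4% of all windows. The Trim28 and Cbx1 windows had 0 CCAAT matches and the Trim24 window had 2. The 2 Chd4 windows overlap, so some of their matches are counted in both. All these matches describe letters only, and no binding was measured.

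Trim28 itself had its highest signal in parental cells and lower signals in both groups that expressed BORG. Its gene lies on chromosome 7 (13024152 to 13031032, GRCm38.p6). Its log2 signal, the unit of all values here, was 9.50 and 9.53 on BORG/sgTRIM28 arrays, 9.88 and 9.96 on BORG arrays, and 10.49 and 10.68 on parental arrays. The 3 groups did not overlap, with the BORG/sgTRIM28 arrays lowest and the parental arrays highest. In BORG cells Trim28 fell by 0.67 against parental cells (standard error 0.12, 95% interval -0.95 to -0.38, adjusted p = 0.0271 from limma), a ratio of 0.63. A change was called where its p-value, adjusted by Benjamini-Hochberg over all 41345 clusters of the comparison, was under 0.05. The call was lost under 8 of the 15 alternative settings and array omissions. Each of the 6 omissions of 1 array was among them, at log2 changes between -0.76 and -0.57. Omitting an array of the group not compared repeated the fit on only the 4 arrays compared. Counts out of 15 here and below therefore hold that fit more than once, and these omissions are not separate evidence.

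The Trim28 signal was lower again in BORG/sgTRIM28 cells, but neither difference passed the adjusted threshold. Against BORG cells the log2 change was -0.41 (interval -0.69 to -0.12, adjusted p = 0.0911 from limma), with 9.51 ± 0.03 in BORG/sgTRIM28 and 9.92 ± 0.05 in BORG cells (SD, n = 2 each). Against parental cells it was -1.07 (interval -1.36 to -0.79, adjusted p = 0.058 from limma), a ratio of 0.475, and this was the largest absolute change of any member in any comparison. In that comparison only 50 of all clusters were called, 0.121%, and Trim28 ranked 63 by p-value. On the arrays of the edited cells the Trim28 signal stayed above the median of all clusters, which was 5.24 on both.

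**Figure D1:**
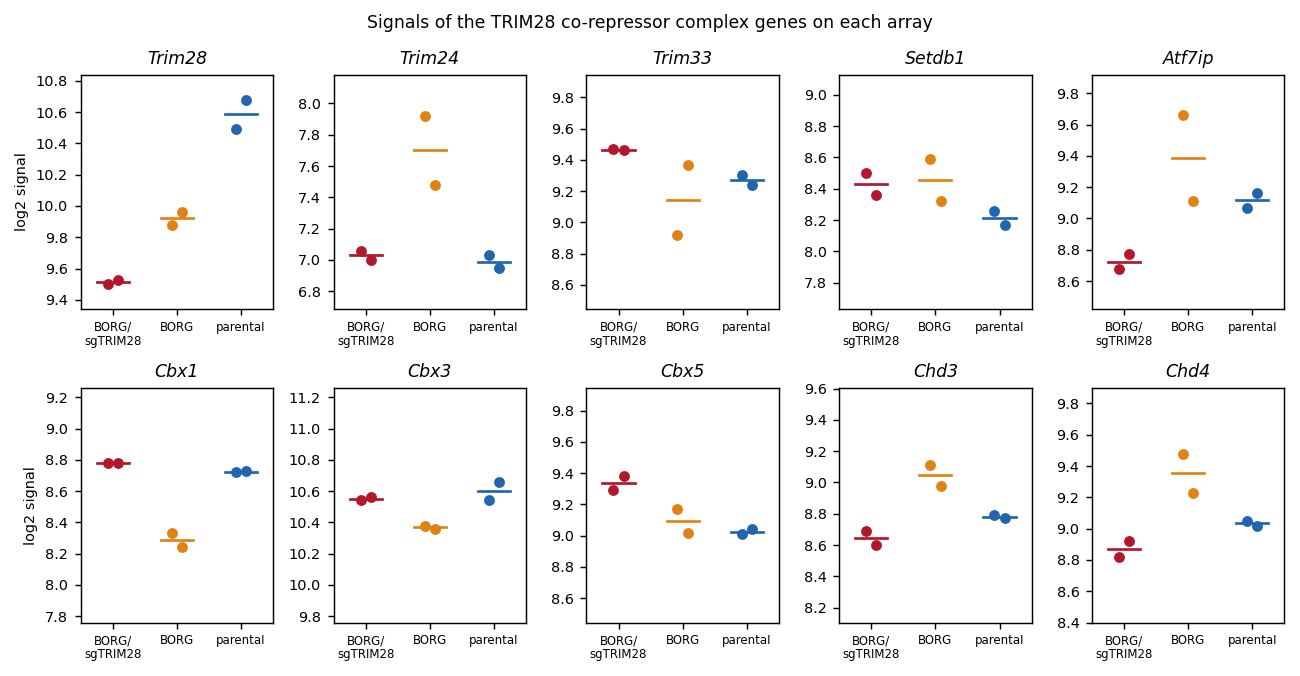
Log2 signal of each of the 10 complex genes on each array (y axis, 1 panel per gene, all panels spanning the same number of log2 units), with the BORG/sgTRIM28, BORG and parental groups on the x axis. Points are single arrays and bars are group means of 2 arrays. Trim28 steps down with no overlap among the groups, and in 8 of the 10 genes the BORG arrays lie farthest apart.

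Among the paralogs of TRIM28 in the TIF1 family, Trim24 and Trim33 followed neither Trim28 nor each other. Trim24, or TIF1-alpha, reads histone H3 through its PHD finger and bromodomain and acts as a nuclear receptor co-regulator and a ubiquitin ligase. Its log2 signal was 7.06 and 7.00 on BORG/sgTRIM28 arrays, 7.92 and 7.48 on BORG arrays, and 7.03 and 6.95 on parental arrays. Both BORG arrays lay above all 4 others, while the BORG/sgTRIM28 and parental arrays overlapped. The log2 change was 0.71 in BORG against parental cells (interval 0.30 to 1.11, adjusted p = 0.0612 from limma) and -0.67 in BORG/sgTRIM28 against BORG cells (interval -1.07 to -0.27, adjusted p = 0.0605), so both missed the threshold. The 2 comparisons share the BORG arrays, which differed from each other by 0.44. Without the second BORG array, the lower of the pair, both Trim24 differences were called, at log2 changes of 0.93 and -0.89.

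Trim33, or TIF1-gamma, works with SMAD proteins in TGF-beta and BMP signaling. Its log2 signal was 9.47 and 9.46 on BORG/sgTRIM28 arrays, 8.92 and 9.37 on BORG arrays, and 9.30 and 9.24 on parental arrays. The 2 BORG arrays lay on either side of the parental pair, and both lay below the BORG/sgTRIM28 pair. None of its 3 differences passed, with log2 changes of -0.13 in BORG against parental cells (interval -0.53 to 0.28), 0.32 in BORG/sgTRIM28 against BORG cells (interval -0.09 to 0.73) and 0.19 in BORG/sgTRIM28 against parental cells (interval -0.21 to 0.60). The change in BORG/sgTRIM28 against BORG cells was 0.09 without the first BORG array and 0.55 without the second, and neither was called (adjusted p = 0.731 and 0.0572 from limma).

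The methyltransferase arm of the complex did not change past the threshold. Setdb1, the enzyme that writes the repressive histone H3 lysine 9 mark at TRIM28 targets, had log2 signals of 8.50 and 8.36 on BORG/sgTRIM28 arrays, 8.59 and 8.32 on BORG arrays, and 8.26 and 8.17 on parental arrays. The parental pair lay below the other 4 arrays, while the BORG/sgTRIM28 and BORG pairs overlapped. The 3 log2 changes were 0.24 in BORG against parental cells (interval -0.09 to 0.57), -0.02 in BORG/sgTRIM28 against BORG cells (interval -0.35 to 0.31) and 0.22 in BORG/sgTRIM28 against parental cells (interval -0.12 to 0.55).

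Atf7ip, also called MCAF1, is the cofactor that keeps SETDB1 in the nucleus and protects it from degradation. Its log2 signal was 8.68 and 8.77 on BORG/sgTRIM28 arrays, 9.66 and 9.11 on BORG arrays, and 9.07 and 9.16 on parental arrays. The BORG/sgTRIM28 arrays were the lowest, and the BORG arrays, at a gap of 0.55 the widest of any member, overlapped the parental pair. Atf7ip had a log2 change of -0.66 in BORG/sgTRIM28 against BORG cells (interval -1.13 to -0.19, adjusted p = 0.0953 from limma), and 0.27 in BORG against parental cells (interval -0.20 to 0.74, adjusted p = 0.505). Without the first BORG array these changes were -0.38 and -0.01. Without the second BORG array they were -0.94, which was called (adjusted p = 0.0214 from limma), and 0.55.

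The HP1 proteins, which bind methylated lysine 9 of histone H3 through a chromodomain and TRIM28 through a chromoshadow domain, held the other call. Cbx1, which encodes HP1-beta on chromosome 11, had log2 signals of 8.78 and 8.78 on BORG/sgTRIM28 arrays, 8.33 and 8.24 on BORG arrays, and 8.72 and 8.73 on parental arrays. The BORG pair was the lowest, and the other pairs lay close together without overlap. Cbx1 rose by 0.49 in BORG/sgTRIM28 against BORG cells (standard error 0.10, interval 0.24 to 0.75, adjusted p = 0.0399 from limma), a ratio of 1.41. Against parental cells the log2 change of Cbx1 was -0.44 in BORG cells (interval -0.69 to -0.18, adjusted p = 0.0647 from limma) and 0.05 in BORG/sgTRIM28 cells (interval -0.20 to 0.31). The call on Cbx1 was lost under 10 of 15 alternatives, with each array left out in turn (adjusted p between 0.0858 and 0.168) and with arrays centred on their medians among them.

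Cbx3 encodes HP1-gamma, the form most often found at transcribed genes. Its brightest cluster had log2 signals of 10.54 and 10.56 on BORG/sgTRIM28 arrays, 10.38 and 10.36 on BORG arrays, and 10.54 and 10.66 on parental arrays. The BORG pair was the lowest here too, at differences that did not pass the threshold: -0.23 in BORG against parental cells (interval -0.49 to 0.03) and 0.17 in BORG/sgTRIM28 against BORG cells (interval -0.09 to 0.44). The symbol Cbx3 stood alone on 4 clusters, and RefSeq lists 6 pseudogenes named after it, so signal from near-identical copies cannot be told apart from that of the gene. All 4 clusters had negative changes in BORG against parental cells, between -0.35 and -0.20 with 0 called, as the plot of all Cbx3 clusters shows. In BORG/sgTRIM28 against BORG cells the dimmer clusters had changes of -0.02, 0.09 and 0.31. For those at -0.02 and 0.09 the BORG arrays overlapped the BORG/sgTRIM28 arrays.

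Cbx5, which encodes HP1-alpha, the form most tied to constitutive heterochromatin, had log2 signals of 9.29 and 9.38 on BORG/sgTRIM28 arrays, 9.17 and 9.02 on BORG arrays, and 9.01 and 9.04 on parental arrays. The BORG/sgTRIM28 pair was the highest, and the BORG and parental pairs overlapped. None of its differences passed, the largest being 0.31 in BORG/sgTRIM28 against parental cells (interval 0.04 to 0.59, adjusted p = 0.528 from limma). The BORG pair was therefore the lowest for Cbx1 and for the brightest Cbx3 cluster but not for Cbx5.

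**Figure D2:**
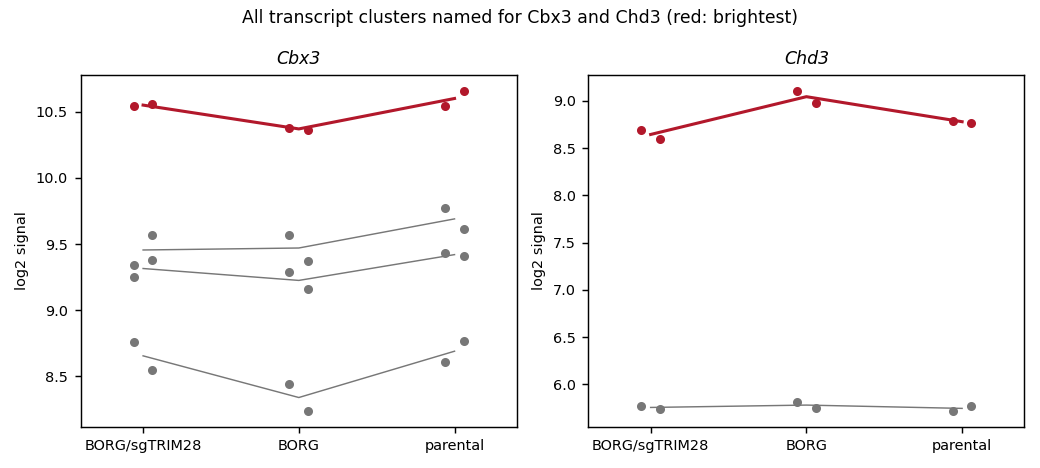
Log2 signal (y axis) of all clusters that carried the symbol Cbx3 or Chd3 alone, in the BORG/sgTRIM28, BORG and parental groups (x axis). Points are arrays, lines join group means, and red marks the brightest cluster, which stood for the gene. The brightest Cbx3 cluster is lowest in BORG cells, and the dimmer Chd3 cluster stays between 5.72 and 5.81.

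The NuRD ATPases Chd3 and Chd4 shared a pattern opposite to that of Cbx1, without a call. CHD3 binds TRIM28 modified by SUMO, and CHD4 is the main motor of NuRD. Chd3 had log2 signals of 8.69 and 8.60 on BORG/sgTRIM28 arrays, 9.11 and 8.98 on BORG arrays, and 8.79 and 8.77 on parental arrays. Chd4 had log2 signals of 8.82 and 8.92 on BORG/sgTRIM28 arrays, 9.48 and 9.23 on BORG arrays, and 9.05 and 9.02 on parental arrays. In both genes the BORG pair was the highest and the BORG/sgTRIM28 pair the lowest, with no overlap among the groups.

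For Chd3 the log2 change in BORG/sgTRIM28 against BORG cells was -0.40 (interval -0.67 to -0.13, adjusted p = 0.0809 from limma). For Chd4 it was -0.49 (interval -0.79 to -0.18, adjusted p = 0.0703 from limma), and -0.61 without the second BORG array, where it was called (adjusted p = 0.0499). In BORG against parental cells the changes were 0.27 for Chd3 (adjusted p = 0.235) and 0.32 for Chd4 (adjusted p = 0.217). A second Chd3 cluster near the array medians, with signals of 5.72 to 5.81, had changes between -0.03 and 0.04.

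Counted together, 1 of the 10 members was called in BORG against parental cells, Trim28, which was lower. Of all clusters 7.09% were called in that comparison, so the share among the members was near the background. Likewise 1 of 10 was called in BORG/sgTRIM28 against BORG cells, Cbx1, which was higher, where 9.55% of all clusters were called. The comparison of BORG/sgTRIM28 with parental cells had 0 of 10 called by limma, with 2 of 10 at an unadjusted p under 0.05, Trim28 and Cbx5, where 8.7% of all clusters did, and 0 by the methods' t-test, which after adjustment called 0 of all clusters in each comparison. At an unadjusted p under 0.05 BORG against parental cells had 4 of 10 members, where 21.7% of all clusters did. BORG/sgTRIM28 against BORG cells had 6 of 10, where 24% did. All 10 members lay above the median signal. With only clusters above it tested, 7607 of 20672 were under 0.05 in BORG against parental cells, 5 members among them. In BORG/sgTRIM28 against BORG cells 8223 of 20672 were, 6 members among them. The median log2 change of the members was 0.15 in BORG against parental cells, against -0.03 over all clusters. It was -0.21 in BORG/sgTRIM28 against BORG cells, against 0.05 over all clusters, and in BORG/sgTRIM28 against parental cells -0.01, against 0.01.

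The arrays of the groups did not overlap for 7 of 10 members in BORG against parental cells, 4 higher and 3 lower, where 50.5% of all clusters did not overlap. The count was 9 of 10 in BORG/sgTRIM28 against BORG cells, 4 higher and 5 lower, against 52.4% of all clusters, and Setdb1 alone overlapped. Of the 10 members, 8 did not overlap in BORG/sgTRIM28 against parental cells, 4 in each direction, against 42.5%. The BORG arrays differed most from each other. The median gap over the members was 0.0699 between the BORG/sgTRIM28 arrays, 0.198 between the BORG arrays and 0.067 between the parental arrays, and for 8 of 10 members the BORG pair had the widest gap. Over all clusters the median gaps were 0.143 in BORG/sgTRIM28 cells, 0.174 in BORG cells and 0.132 in parental cells.

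**Figure D3:**
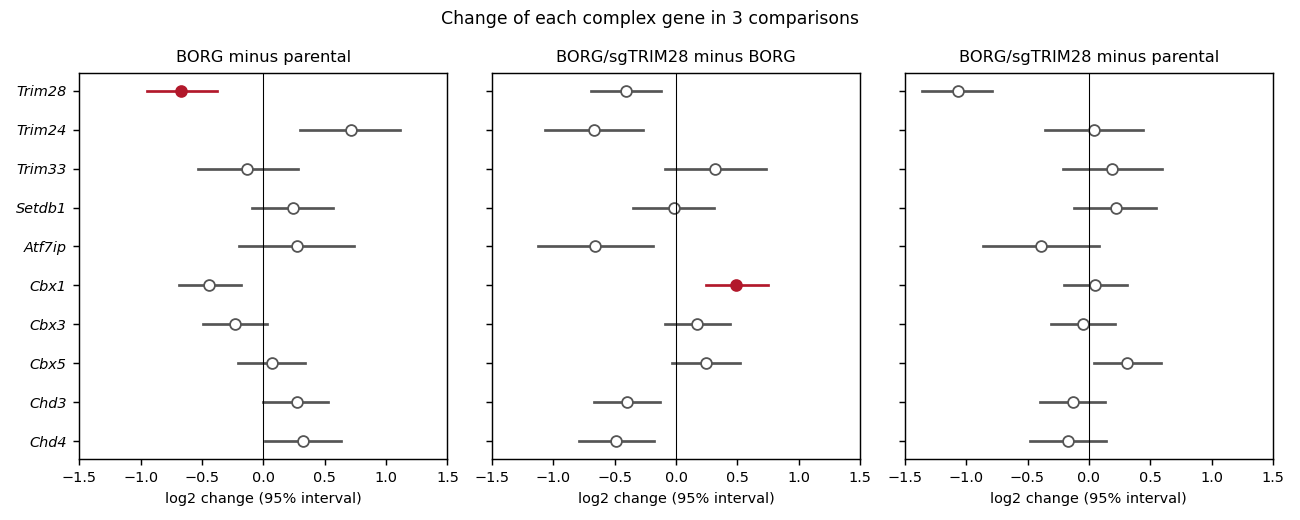
Log2 change of each complex gene (x axis, points) with its 95% interval (lines) in BORG minus parental, BORG/sgTRIM28 minus BORG and BORG/sgTRIM28 minus parental cells. Filled red points passed an adjusted p of 0.05 in limma: Trim28 at -0.67 in the left panel and Cbx1 at 0.49 in the middle panel.

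Genes whose signals followed Trim28 most closely were sought over the whole array. Likeness was measured as the root mean square difference of log2 signals over the 6 arrays, each gene centred on its own mean, against 22179 other genes. The 5 most like genes were Rhbdf2, an inactive rhomboid protein that helps traffic the protease ADAM17, at 0.0875, Ptgr1, a prostaglandin reductase, at 0.117, Gm5945, a predicted gene, at 0.13, Gsap, the gamma-secretase activating protein, at 0.141, and Gjb2, the gap junction protein connexin 26, at 0.157. Rhbdf2 had log2 signals of 7.92 and 7.81 on BORG/sgTRIM28 arrays, 8.19 and 8.46 on BORG arrays, and 8.93 and 8.95 on parental arrays. Its resemblance to Trim28 is what it was chosen by.

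The wider machinery around the complex was read from 70 measured genes in 12 lists, none of them among the 10 members. In BORG against parental cells 7 of the 70 were called, all lower, which is 10% of them beside 7.09% of all clusters. Of the same genes 9 of 70 were called in BORG/sgTRIM28 against BORG cells, all higher, which is 12.9% beside 9.55% of all clusters. None passed in BORG/sgTRIM28 against parental cells, where 0 of 70 were called by limma, with 4 at an unadjusted p under 0.05 beside 8.7% of all clusters, and 0 by the methods' t-test. Since the first pair of comparisons share the BORG arrays, their opposite directions are not independent. With single arrays left out the first count ran between 0 and 8, being 0 without either parental array and 1 without the first BORG array, and the second ran between 1 and 7, being 1 without the second BORG/sgTRIM28 array. The median log2 change of the 70 genes was -0.17 in BORG against parental cells, 0.18 in BORG/sgTRIM28 against BORG cells and -0.02 in BORG/sgTRIM28 against parental cells. Over all clusters it was -0.03, 0.05 and 0.01. Most of the list genes lay above the median signal. With only clusters above it tested, 14 of 63 list genes were called in BORG against parental cells, all lower, 22.2% beside 21.7% of those clusters. In BORG/sgTRIM28 against BORG cells 16 of 63 were called, 13 higher and 3 lower, 25.4% beside 26.1%.

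Among 13 NuRD subunits beside Chd3 and Chd4, Rbbp4, the histone-binding chaperone that NuRD shares with other complexes, was the 1 called in each of the first pair of comparisons. Rbbp4 had log2 signals of 10.01 and 10.01 on BORG/sgTRIM28 arrays, 9.11 and 9.15 on BORG arrays, and 9.89 and 9.94 on parental arrays. It was lowest in BORG cells, with a log2 change of -0.79 against parental cells (adjusted p = 0.0117 from limma), and 0.88 in BORG/sgTRIM28 against BORG cells (adjusted p = 0.00669). Both Rbbp4 calls were lost with all clusters of the gene averaged, by the methods' t-test and in some array omissions. The deacetylase gene Hdac2 had 0.45 in BORG/sgTRIM28 against BORG cells (adjusted p = 0.0602) and Hdac1 had 0.09. In the same comparison Mta3, another NuRD subunit, had a negative change like Chd3 and Chd4, at -0.40 (adjusted p = 0.0961 from limma). Most of the list went the other way, with 9 of the 13 subunits positive and 4 negative. Rbbp7 had 0.47 (adjusted p = 0.0516 from limma).

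Chaf1a and Chaf1b encode the larger subunits of the histone chaperone CAF-1, which loads new histones behind the replication fork, binds HP1 and has Rbbp4 as its remaining subunit. Both were called in the same pair of comparisons. Chaf1a had log2 signals of 6.89 and 7.12 on BORG/sgTRIM28 arrays, 6.07 and 6.11 on BORG arrays, and 7.06 and 7.07 on parental arrays. Its log2 change was -0.98 in BORG against parental cells and 0.92 in BORG/sgTRIM28 against BORG cells, and Chaf1b had -0.70 in the first and 0.61 in the second. They were the 2 called of 8 heterochromatin partners of HP1. The calls on Chaf1b were lost under 8 of 15 alternatives in the first comparison and 9 in the second, with each array left out in turn among them, and those on Chaf1a under 4 and 3.

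Of 9 demethylases of histone H3 lysine 9, Kdm3a was called in both, at -0.64 in BORG against parental cells and 0.56 in BORG/sgTRIM28 against BORG cells, calls lost under 9 and 10 of 15 alternatives, with each array left out in turn among them. Of 7 genes of DNA methylation, Dnmt3b, a de novo methyltransferase, fell by 0.60 in BORG against parental cells (adjusted p = 0.0498 from limma), a call that was lost under 10 of 15 alternatives, 5 of the 6 array omissions among them. The same list had 0 called by limma in BORG/sgTRIM28 against BORG cells, with 3 of 7 at an unadjusted p under 0.05, where 24% of all clusters did. Tasor, a subunit of the HUSH silencing complex that works beside SETDB1, rose by 0.58 in BORG/sgTRIM28 against BORG cells, 1 of 3 measured genes of its list. Its call, at an adjusted p of 0.0358 from limma, was lost under 10 of 15 alternatives, with each array left out in turn among them (adjusted p between 0.0584 and 0.165). Among 6 other CHD remodelers Chd1, the remodeler tied to elongation, rose by 0.76 in the same comparison, a call lost under 7 of 15 alternatives, 5 of the 6 array omissions among them. The lists of other lysine 9 methyltransferases (5 measured genes), Polycomb Cbx proteins (3 measured genes) and Trim66, the remaining TIF1 family gene, held 0 calls in all 3 comparisons by limma, with 1, 1 and 1 genes at an unadjusted p under 0.05 in BORG against parental cells and 2, 1 and 1 in BORG/sgTRIM28 against BORG cells, where 21.7% and 24% of all clusters were under it.

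Upstream of TRIM28, 1 of 8 KRAB zinc finger partners was called in BORG against parental cells, beside 7.09% of all clusters, and 2 of 8 in BORG/sgTRIM28 against BORG cells, beside 9.55%. In each comparison 0 of the 8 were called with only the 4 arrays compared and in 5 of the 6 array omissions, and 1, Zfp568, without the second BORG array. Zfp568, which represses an Igf2 transcript in the mouse placenta, had log2 signals of 8.23 and 8.24 on BORG/sgTRIM28 arrays, 7.15 and 7.61 on BORG arrays, and 8.29 and 8.41 on parental arrays, with changes of -0.97 in BORG against parental cells and 0.86 in BORG/sgTRIM28 against BORG cells. Zfp445, a regulator of imprinting, rose by 0.55 in BORG/sgTRIM28 against BORG cells (adjusted p = 0.0393 from limma, and between 0.069 and 0.177 with single arrays left out). Among 6 kinases and phosphatases that act on TRIM28, Atm, the kinase that phosphorylates TRIM28 after DNA breaks, had the largest change of all 70 genes. Atm had log2 signals of 8.76 and 8.86 on BORG/sgTRIM28 arrays, 7.55 and 7.59 on BORG arrays, and 8.54 and 8.59 on parental arrays, so that the BORG pair was far below the other 4 arrays. It was lower in BORG cells against parental cells (adjusted p = 0.00639 from limma), and its log2 change in BORG/sgTRIM28 against BORG cells was 1.24 (adjusted p = 0.00252).

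**Figure D4:**
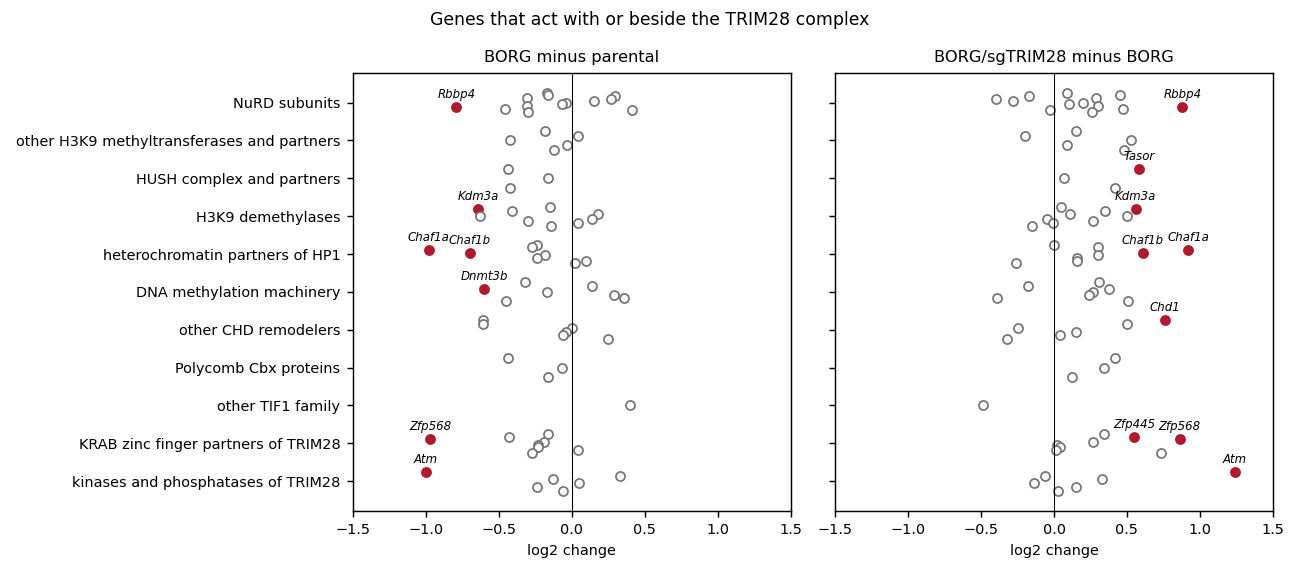
Log2 change (x axis) of genes that act with or beside the TRIM28 complex, by list (rows), in BORG minus parental cells (left) and BORG/sgTRIM28 minus BORG cells (right). Each point is 1 gene, red where the adjusted p was under 0.05 in limma. The 7 red points on the left are all negative and the 9 on the right all positive, and both panels use the same BORG arrays.

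Cdkn1a, the gene of the cell cycle inhibitor p21 that the study tied to TRIM28, had log2 signals of 9.22 and 9.41 on BORG/sgTRIM28 arrays, 9.22 and 10.24 on BORG arrays, and 9.28 and 9.41 on parental arrays. The second BORG array stood above the other 5, and the first BORG array was level with the rest. The log2 change of Cdkn1a was 0.39 in BORG against parental cells, -0.13 without the second BORG array and 0.90 without the first. In BORG/sgTRIM28 against BORG cells it was -0.41, 0.10 without the second BORG array and -0.93 without the first. With all arrays both changes had the opposite sign to those the study reported by PCR, and no Cdkn1a difference was called. Gadd45a, Suv39h1, Suv39h2, Mphosph8 and Cbx6 had no cluster with their symbol alone and were not analysed here.

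Markers of other cell types were read in the same way, although the methods describe cultures of D2.OR cells only. Of 5 measured leukocyte markers 0 were called in any comparison by limma, with 0 at an unadjusted p under 0.05, and all had log2 signals between 3.39 and 4.85, below the array medians of 5.18 to 5.24. The 4 endothelial markers held 0 calls too, with 1 of 4 at an unadjusted p under 0.05 in each comparison, beside the 21.7%, 24% and 8.7% of all clusters given above. Cdh5, the brightest of them at 5.87 to 7.16, lay above the medians. Its log2 change was -0.82 in BORG/sgTRIM28 against BORG cells and -0.86 against parental cells. Of 7 epithelial markers, Krt8, Krt18 and Krt14 were higher in BORG cells against parental cells (log2 changes of 1.31, 1.49 and 1.32). They were lower in BORG/sgTRIM28 than in BORG cells, while Epcam stayed at 4.68 to 5.01, below the medians. Cdh1, Krt19 and Trp63 were not called, at 0.02, 0.19 and -0.20 in BORG against parental cells. In BORG/sgTRIM28 against BORG cells Cdh1 had 0.41, opposite in sign to the called keratins. Of 4 fibroblast markers, Col1a1 was higher (1.18) and Pdgfra lower (-1.25) in BORG cells against parental cells, with the reverse in BORG/sgTRIM28 against BORG cells. Of 3 adipocyte markers, Fabp4 fell by 1.60 in BORG/sgTRIM28 against BORG cells. The part of these genes in the results on the complex was not tested, and in bulk RNA fewer cells of a type and less RNA per cell cannot be told apart.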

How the data were processed

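RNA of D2.OR cells was measured on 6 Affymetrix Mouse Gene 2.0 ST arrays. Probe intensities were normalized by the authors with Affymetrix Expression Console, and Transcriptome Analysis Console stands beside it in the submitters' processing notes. What was deposited is 1 log2 signal for each transcript cluster on each array, between 1.92 and 13.7. The software versions and the way probes were summarized are stated neither by the methods nor by the labels. Without detection values the signal over background is unknown, and precision is limited by the number of arrays.

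Gene names came from the platform annotation, and only the 23521 of 41345 clusters with a single symbol were assigned to a gene. The 3 group means were fitted over all 6 arrays with limma 3.58.1 in R 4.3.3 (lmFit and eBayes, 3 residual and 3.04 prior degrees of freedom), and p-values were adjusted by Benjamini-Hochberg over all clusters of each comparison. With 2 arrays a group, an exact permutation test of 1 gene cannot give a two-sided p below 0.333, so none is reported. The fit was tested on simulated data.

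Named genes were all 10 members, up to 4 called genes of each list with the largest change, Cdkn1a and Gadd45a, and the 5 genes most like Trim28. Hdac1, Hdac2, Mta3 and Rbbp7 were named after their values were seen. The members, lists and tests were chosen with earlier results of these data known. The lists were written by hand.

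There were 10 alternatives. The fit was changed by a block for the replicate number, by a variance trend, by use of only the 4 arrays compared, and by leaving out each array in turn. Leaving out an array of the group not compared gave the same fit as use of only the 4 arrays compared. The values were changed by quantile normalization or by centring arrays on their medians. The features tested were limited to clusters over the median signal or to 1 cluster for each gene, all clusters of a gene were averaged, and the methods' t-test replaced limma. Promoter windows and gene coordinates came from RefSeq, GRCm38.p6, which was used for names and sequence only.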

Additional observations from a re-analysis of the deposited data

How the results depend on the processing

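The number of called members depended on the setting more than their direction did. Over 450 single values of the members, 398 kept their direction and side of the threshold, 18 lost the threshold, 27 gained it and 7 reversed. In BORG against parental cells 1 member was called. The count was 0 with only the 4 arrays compared and 0 by the methods' t-test. It was 3 (Trim28, Trim24 and Cbx1) with a variance trend, where 9.77% of all clusters were called. It was the same 3 with only clusters above the median signal (21.7% of those tested) and with 1 cluster per gene (16.8%). With single arrays left out it ran between 0 and 1, and the 1 was Trim24, without the second BORG array. In BORG/sgTRIM28 against BORG cells 1 member was called. The count was 0 with the replicate block, 0 with only the 4 arrays compared and 0 by the methods' t-test. It was 5 (Trim28, Trim24, Cbx1, Chd3 and Chd4) with a variance trend, where 12.2% of all clusters were called. It was the same 5 with only clusters above the median signal (26.1% of those tested). It was 6, with Atf7ip added, with 1 cluster per gene (19.5% of those tested). With single arrays left out it ran between 0 and 3, the 3 being Trim24, Atf7ip and Chd4 without the second BORG array, and with median centring the 1 called was Trim24 in place of Cbx1. In BORG/sgTRIM28 against parental cells 0 were called. The count was 1, Trim28, with a variance trend (0.281% of all clusters called), with only clusters above the median signal (0.372%) and with 1 cluster per gene (0.609%).

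The last 2 of these settings leave out dim or unnamed clusters, and of all clusters tested 16.8% were called in BORG against parental cells and 19.5% in BORG/sgTRIM28 against BORG cells with 1 cluster per gene. Whole-table counts were 2933, 3947 and 50, and 1576, 2086 and 1 with only the 4 arrays compared, 0 in each by the adjusted t-test (6181, 6413 and 4105 unadjusted). They were 4486, 5388 and 77 above the median signal, 3732, 4319 and 135 with 1 cluster per gene, and 2030, 2701 and 1 with the replicate block, and median centring moved the share of higher calls in BORG/sgTRIM28 against BORG cells to 33.9%, beside 44.4%. The deviations of same-numbered arrays correlated between -0.04 and 0.04 over all clusters. A correlation over all clusters cannot show a shift confined to some genes, so whether same-numbered arrays shared a batch is not settled by it. The replicate block moved the count of called members to 0 in BORG/sgTRIM28 against BORG cells and left it at 1 and 0 in the others. The called genes of the 12 lists numbered 0 to 15 of 70 in BORG against parental cells and 0 to 18 of 70 in BORG/sgTRIM28 against BORG cells. Both maxima were reached with 1 cluster per gene, at 21.4% and 25.7%, beside 16.8% and 19.5% of all tested. There the 15 were all lower, and the 18 were 15 higher and 3 lower.

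Directions reversed only where an array was left out. The log2 change in BORG against parental cells ran between -0.01 and 0.55 for Atf7ip, -0.01 and 0.14 for Cbx5, -0.36 and 0.10 for Trim33 and -0.13 and 0.90 for Cdkn1a. In BORG/sgTRIM28 against BORG cells it ran between -0.16 and 0.11 for Setdb1 and -0.93 and 0.10 for Cdkn1a. In BORG/sgTRIM28 against parental cells it ran between -0.11 and 0.01 for Cbx3, -0.00 and 0.08 for Trim24 and -0.13 and 0.07 for Cdkn1a. Where an array was left out, the lone array was assumed to vary like the other groups. The cause of these shifts was not tested.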
